A study of Mus musculus with 6 samples.

Results

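Csf1r, the gene of its ligand Csf1 and other genes best known from macrophages were followed in 3T3 cells. The other members were Itgam, Cd68, Cd14, Fcer1g, C1qb, Lyz2 and Laptm5. All 9 genes were chosen by their measured differences between the same 6 arrays, so their values are given as a description and without a p-value. The arrays carry 17 probes for these 9 genes, of 55681 probes with 35527 gene names.

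3T3 is an established line of mouse fibroblasts. Cultures received either GapmeR Ntep, an antisense molecule through which RNase H cuts the long non-coding RNA Ntep, or GapmeR control, and RNA was taken after 48 h. The labels give the dose as 50 nM, and the supplementary documentation of the study as 2 × 50 nM. There were 3 independent experiments with 1 culture for either GapmeR, so that 6 mouse arrays in 1 colour were hybridised, and all lay on 1 slide. The question addressed was which transcripts differ after the silencing of Ntep. Here it was whether the members were measured above background in these fibroblasts, and how they differed between the labels. Signals are background-subtracted intensities after quantile normalization, in arbitrary units, with values under 20 set to 20. Every SE given is that of an unpaired fit, so it includes the spread between experiments and does not use their pairing. Of all probes, between 43.7% and 53.3% per array were well above background, which is the scanner software's own flag for a spot brighter than its surroundings.

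As background, CSF1R is a receptor tyrosine kinase of the cell surface. It binds the cytokines CSF1 and IL34, and its signal keeps monocytes and macrophages alive and dividing. Fibroblasts and other stromal cells are a known source of CSF1, whereas CSF1R is expressed mainly by cells of the myeloid lineage. The other members are an integrin chain, an endosomal glycoprotein, a receptor for bacterial lipopolysaccharide, an adaptor of Fc receptors, a chain of complement C1q, a lysozyme and a lysosomal membrane protein of blood cells.

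The silenced transcript was looked at first, since it checks the labels. Its probe is named A630089N07Rik on the array and lies at chr16:98283712-98283771 of mm9 on the minus strand. On the arrays labelled GapmeR Ntep it read 472, 91.5 and 226 in experiments 1 to 3, and on the arrays labelled GapmeR control 271, 272 and 361. It was lower under the GapmeR Ntep label in experiments 2 and 3 but higher in experiment 1, and the groups overlapped. The log2 difference was -0.48 (SE 0.58, limma adjusted p = 0.632), and the exact permutation test over the 3 + 3 arrays gave p = 0.7, where 0.1 is the smallest it can give. Without the experiment 2 array labelled GapmeR Ntep the difference was 0.13. The probe thus went against the label in experiment 1. Over all 30990 tested probes the log2 differences of experiment 1 correlated with those of experiments 2 and 3 at r = 0.52 and 0.54, much as those of experiments 2 and 3 did with each other (r = 0.56). Of 15 fibroblast markers, 14, 14 and 15 were lower under the GapmeR Ntep label in experiments 1 to 3. Every direction below refers to the labels of the arrays.

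The array was also checked for the cell type. All 15 fibroblast markers had a probe well above background on the 3 control arrays. Of 15 macrophage markers, a list that holds most of the members, 5 had such a probe. All 5 are members (Csf1r, Cd68, Itgam, Cd14 and Fcer1g). A further 7 were well above background on no array, among them the defining genes Ptprc, which encodes the leukocyte antigen CD45, Spi1, which encodes the transcription factor PU.1, and Adgre1, which encodes the macrophage antigen F4/80. The other 4 were the Fc receptor Fcgr1, the complement genes C1qa and C1qc, and Tyrobp, an adaptor of myeloid receptors. Being measured on the control arrays was not particular to members. In wider macrophage lists used below, Mertk, Mpeg1, Aif1, Lst1, Lyz1, Nos2 and Ctss were also well above background on the 3 control arrays. In these lists 14 of 18 surface markers and 6 of 13 secreted and lysosomal markers were so on no array.

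Among the members, 10 of the 17 probes were well above background on all 6 arrays, and they represent 6 of the 9 genes. Itgam counts among the 6, and among the block calls below, through its brightest probe alone. That probe shares a run of bases with probes of other gene names, as described further below. A single probe, for Laptm5, was well above background on no array. In the fit over all probes, which tested the 30990 probes whose brighter group had a mean of at least 50, 14 member probes were included. Of the 9 members 1 (Cd68) was called at an adjusted p under 0.05, beside 5.30% of all tested probes. Signals of the groups did not overlap for 5 member probes, beside 32.1% of all tested probes. With the experiment as a block, 4 members were called (Csf1r, Itgam, Cd68 and Cd14), beside 13.8% of all tested probes. The call of Cd68 was lost in every fit that left out 1 array, except the fit without the experiment 2 array labelled GapmeR Ntep. Of all tested probes, limma called 0 without the control array of experiment 2 and 5 without that of experiment 3. It called 0 without the experiment 3 array labelled GapmeR Ntep. A call lost in these fits therefore says nothing of a gene in particular, for Cd68 and for the genes below. Nothing is read from these member counts, because the members were picked on the same contrast.

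**Figure D1:**
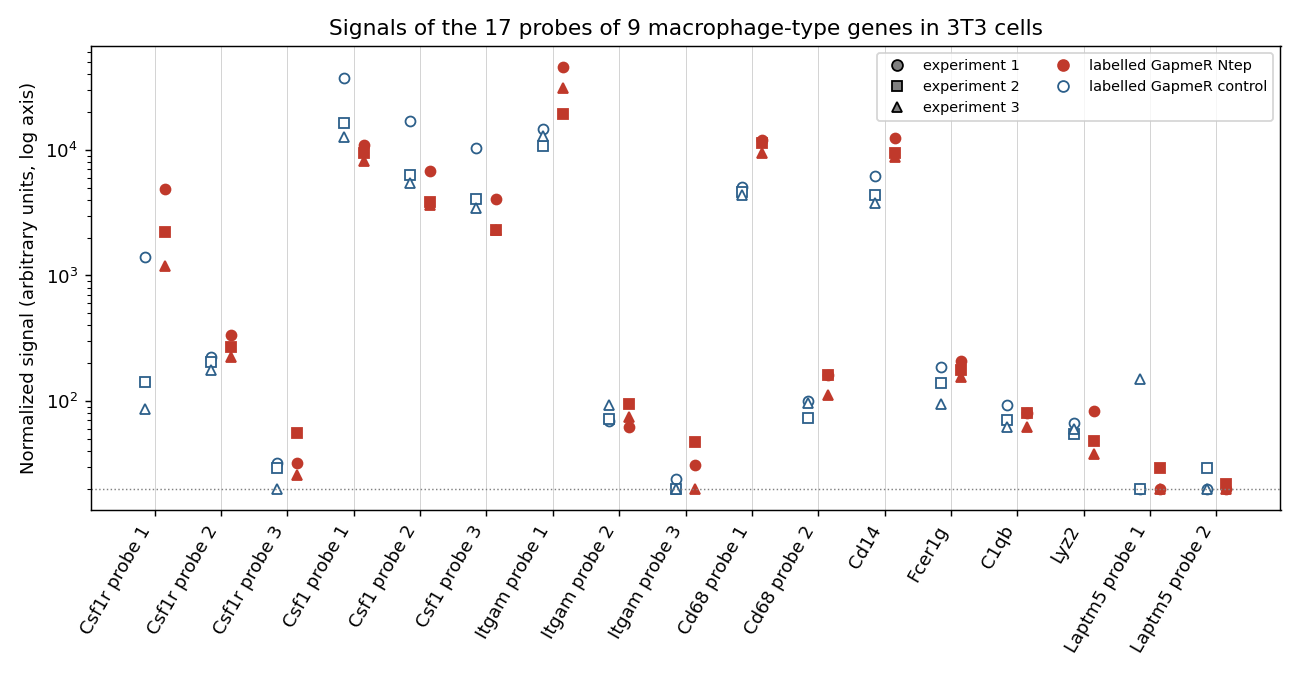
Normalized signal (arbitrary units, log axis) of each of the 17 member probes on the 6 arrays. Filled red symbols are arrays labelled GapmeR Ntep, open blue symbols arrays labelled GapmeR control, the shape gives the experiment, the dotted line is the floor of 20, and the probes of a gene are numbered from the brightest. Csf1r probe 1 runs from 86.7 to 4901 and its groups overlap, while the groups of Cd68 probe 1 do not.

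CSF1 is the ligand of CSF1R that is produced by stromal cells, and its 3 probes were lower under the GapmeR Ntep label in every experiment. The probe present in 10 spots (chr3:107544333-107544392 of mm9, minus strand) read 10953, 9429 and 8123 on the arrays labelled GapmeR Ntep and 37128, 16267 and 12597 on the control arrays. The groups did not overlap, and the control array of experiment 1 stood far above the other 5. The log2 difference was -1.06 (SE 0.42), or 2.09-fold lower, with -1.76, -0.79 and -0.63 in experiments 1 to 3. Without the control array of experiment 1 it shrank to -0.60.

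The other Csf1 probes (chr3:107549406-107549465 and chr3:107549435-107549494) lie in another part of the gene. They gave -0.86 (SE 0.50) and -0.91 (SE 0.48), and for both the experiment 1 array labelled GapmeR Ntep lay above the lowest control, so the groups overlapped. These 2 probes share 31 of their 60 bases and are therefore no separate measurements of the transcript. For all 3 probes the signal over the local background was at least 54.4, so background set no limit here.

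Il34, the gene of the other CSF1R ligand, read 1006, 926 and 478 on the arrays labelled GapmeR Ntep and 1593, 1136 and 1112 on the control arrays. It was lower in each experiment, and its groups did not overlap. Its log2 difference of -0.73 (SE 0.34) did not pass the test (limma adjusted p = 0.25).

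Csf1r, the receptor gene, has 3 probes on the array, and they differed widely. The brightest (chr18:61290725-61290784 of mm9, plus strand) read 4901, 2227 and 1196 on the arrays labelled GapmeR Ntep and 1403, 142 and 86.7 on the control arrays. Within each experiment the array labelled GapmeR Ntep was the brighter one, but the control array of experiment 1 was brighter than the experiment 3 array labelled GapmeR Ntep, so the groups overlapped. The log2 differences within experiments 1 to 3 were 1.80, 3.97 and 3.79, with a mean of 3.19, or 9.10-fold. The SE of 1.12 is that of the unpaired fit and not of these 3 differences. On all 6 arrays this probe was well above background, at 6.53 to 137 times its local background.

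The spread between the control arrays was itself large for this probe. The highest control was 16.2 times the lowest, and 168 of the 30990 tested probes (0.542%) had a ratio as large, against a median ratio of 1.44. Both groups were ordered alike, with experiment 1 brightest and experiment 3 dimmest. Leaving out the control array of experiment 1 raised the log2 difference to 4.41, and leaving out that of experiment 3 lowered it to 2.40. Under another background correction (normexp with an offset of 50) it was 2.52.

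The other Csf1r probes showed much smaller differences. The probe farther upstream (chr18:61278661-61278720) read 335, 268 and 223 against 223, 205 and 175, a log2 difference of 0.44 (SE 0.22), with 0.59, 0.39 and 0.35 by experiment. It was higher in each experiment, and its groups touched, since the experiment 3 array labelled GapmeR Ntep and the control array of experiment 1 both read 223. The remaining probe lay between 20 and 55.5, was well above background on 1 array and was not tested. The probes of Csf1r therefore disagreed in size while sharing the sign of the mean difference.

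The surroundings of the brightest Csf1r probe were examined after its values had been seen. The nearest probe with another gene name, for Hmgxb3, lies 148 bases away on the opposite strand. It read 36589, 35746 and 29440 against 34065, 22988 and 22935 and did not pass the test (log2 difference 0.37, SE 0.23, limma adjusted p = 0.365). Pdgfrb, a platelet-derived growth factor receptor of the same kinase class, lies upstream with its probe 46059 bases away. Its log2 difference was -0.76 (SE 0.34, limma adjusted p = 0.226), of the opposite sign. No probe of another gene name shares a run of 20 bases with any of the Csf1r probes.

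By a rule set on likeness alone, the log2 signals of the brightest Csf1r probe over the 6 arrays were compared with those of 13538 other genes well above background on every array. The highest Pearson correlations were those of Hrg (r = 0.999), Ubqln1 (r = 0.998), Ercc4 (r = 0.997), Gm15361 (r = 0.997) and Lce1f (r = 0.996). Spearman's rho was 1 for each except Ubqln1, where it was 0.943. Without the control arrays of experiments 2 and 3, the pair farthest from the median of Csf1r, r lay between 0.966 and 0.999. With 6 arrays and this many genes searched, correlations of this size are a description of the order of the arrays. Only Lce1f, which encodes a protein of the cornified envelope of skin, also had a log2 difference of comparable size (2.53, SE 0.96), with 2220, 843 and 650 against 760, 108 and 76. By experiment it was 1.55, 2.96 and 3.1, and the control array of experiment 1 stood far above the remaining controls, as for Csf1r. The other 4 genes differed by 0.33 to 0.63.

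Itgam encodes the integrin chain CD11b, which pairs with the beta2 chain encoded by Itgb2 on myeloid cells. Its brightest probe (chr7:135261755-135261814 of mm9, plus strand) read 45777, 19443 and 30885 on the arrays labelled GapmeR Ntep and 14655, 10652 and 12952 on the control arrays. Each array labelled GapmeR Ntep was above every control. The log2 difference was 1.26 (SE 0.34), or 2.39-fold, with 1.64, 0.87 and 1.25 by experiment.

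The other Itgam probes were far dimmer. One was close to background, at 61.8, 95 and 73.9 against 68.8, 72 and 92.4, with a log2 difference of -0.03 (SE 0.23) that changed sign under 4 of 14 alternatives. The other was well above background on 1 array, lay between 20 and 47.5 and was not tested, with a log2 difference of 0.54 (0.37, 1.25 and 0 by experiment). Itgb2, the partner chain, read 240, 119 and 113 against 132, 143 and 138, where only the experiment 1 array labelled GapmeR Ntep stood apart (log2 difference 0.10, SE 0.32, limma adjusted p = 0.869). That difference was -0.25 without the experiment 1 array labelled GapmeR Ntep.

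The sequences of the Itgam probes differ in a way that bears on this contrast, and the first 30 bases of each are shown for that reason. The comparison was made after the values had been seen. The brightest probe starts with a repeat of CA, given in capitals, and neither of the other probes does.
Itgam brightest probe: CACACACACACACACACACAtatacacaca
Itgam second probe: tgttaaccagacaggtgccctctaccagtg
Itgam dimmest probe: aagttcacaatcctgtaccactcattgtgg

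A run of at least 20 bases of the brightest Itgam probe also occurs, on one strand or the other, in 72 probes that carry other gene names. Of these, 23 hold it on the same strand, and all 23 were higher under the GapmeR Ntep label, at a median of 1.25 on the log2 scale and a range from 0.81 to 1.46. The 49 probes with the complementary run were all lower, with a median of -0.58 and a range from -0.73 to -0.36. All 72 were well above background on the 6 arrays, and 0 of them were called by limma, while 69 had an unadjusted p under 0.05. The value of the brightest Itgam probe, 1.26, thus lay close to the median of the probes that hold its run on the same strand. What this probe measured in these cells, Itgam transcript or other RNA with the repeat, cannot be told apart. No other member probe shares such a run with a probe of another name, and of all 55681 probes 227 (0.408%) share one with at least 10 other names.

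**Figure D2:**
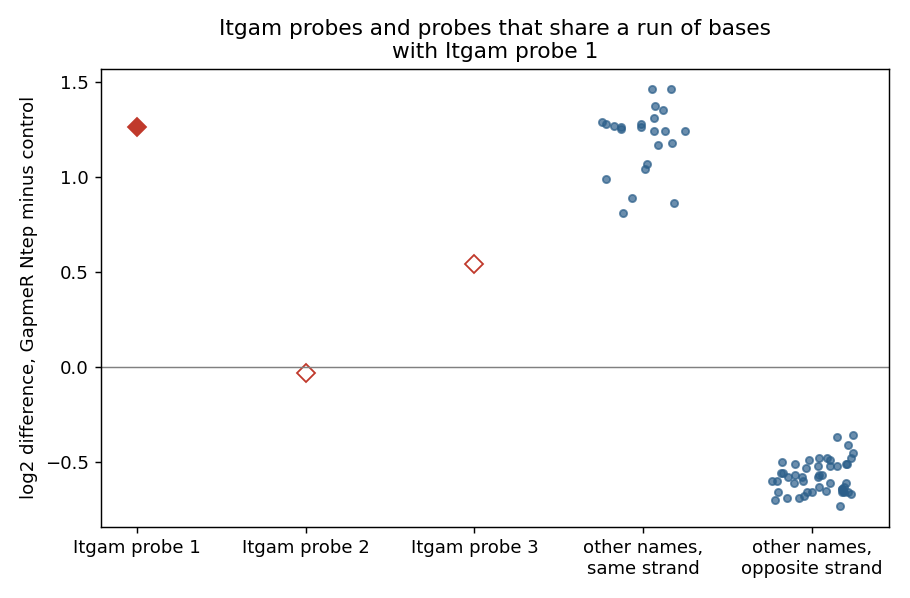
Log2 difference (GapmeR Ntep minus GapmeR control, mean of 3 experiments) of the 3 Itgam probes, as red diamonds, and of the 72 probes of other gene names that share a run of at least 20 bases with Itgam probe 1, as blue dots. Open diamonds mark probes not well above background on every array. All 23 dots on the same strand lie above 0 and all 49 on the opposite strand below it.

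Cd68 encodes a glycoprotein of late endosomes and lysosomes that is used as a macrophage marker, although other cells with many lysosomes also express it. Its brighter probe (chr11:69477775-69477834 of mm9, minus strand) read 11892, 11260 and 9404 on the arrays labelled GapmeR Ntep and 5022, 4587 and 4380 on the control arrays. The arrays of each group lay close together and the groups were far apart. The log2 difference was 1.21 (SE 0.17), or 2.32-fold, with 1.24, 1.30 and 1.10 by experiment, and it stayed between 1.11 and 1.31 under all 14 alternatives.

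The dimmer Cd68 probe (chr11:69478979-69479038) read 162, 160 and 112 against 100, 73.5 and 95.6. Its groups did not overlap either, and its log2 difference was 0.68 (SE 0.23). It was 5.14 to 9.21 times its local background, whereas the brighter probe was 159 to 393 times its own. The brighter probe is listed on the array under a cDNA clone and the dimmer one under the RefSeq transcript. In bulk samples fewer cells of a type and less RNA per cell cannot be told apart, which holds for each difference given here.

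Laptm5, the gene of a lysosomal membrane protein of haematopoietic cells, was not measurable in most cultures. Of its 2 probes, one was at the floor of 20 or just above it on 5 arrays and read 150 on the control array of experiment 3. That single array made its log2 difference -0.78 (SE 0.81), which was 0.19 without it and -1.42 with array weights. The other probe read at most 29.1 and was well above background on no array.

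Among 8 other genes of the LAMP and LAPTM families and their lysosomal relatives, 7 were tested and 7 had a probe well above background on all 6 arrays. By limma, 0 were called higher and 1 was called lower (0 and 2 at an unadjusted p under 0.05). The one called was Scarb2, which encodes the lysosomal membrane protein LIMP-2. It read 338, 819 and 805 against 3832, 3874 and 3447, and it fell 6.12-fold (log2 difference -2.61, SE 0.37, limma adjusted p = 0.0287), lower in all 3 experiments. The call was lost in 4 of 6 fits that left out 1 array, where the adjusted p ranged from 0.0285 to 0.133. These 4 include the fits with 0, 5 and 0 calls over all tested probes. The median log2 difference of the tested genes of this list was -0.16, beside 0.06 for all tested probes, and the summed signal was 581932, 543600 and 524451 against 586339, 586331 and 554560, with the probe of Cd63 the brightest over the 6 arrays. The fit with the block for the experiment called 0 of the list higher and 2 lower.

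Cd14 encodes the surface protein that hands lipopolysaccharide to the receptor TLR4 and its partner LY96. Its single probe (chr18:36884969-36885028 of mm9, minus strand) read 12503, 9413 and 8859 on the arrays labelled GapmeR Ntep and 6186, 4413 and 3772 on the control arrays. The groups did not overlap, and both were highest in experiment 1. On the log2 scale the difference was 1.11 (SE 0.26), or 2.16-fold, with 1.02, 1.09 and 1.23 by experiment.

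Of 10 other genes of the CD14 and TLR4 complex, 7 were tested, 1 was called higher and 0 were called lower by limma (2 and 0 at an unadjusted p under 0.05). Tirap, an adaptor that links TLR2 and TLR4 to MYD88, read 7755, 5578 and 6712 against 2860, 2895 and 2652. It rose 2.36-fold (log2 difference 1.24, SE 0.19, limma adjusted p = 0.0298) and was higher in all 3 experiments. The call of Tirap was lost in 5 of 6 fits that left out 1 array, with an adjusted p of 0.041 to 0.139. These 5 include the fits with 0, 5 and 0 calls over all tested probes. The median log2 difference of the tested genes of the list was 0.31. The list's summed signal was 51119, 47457 and 46257 against 49685, 48226 and 38852, and the probe of Myd88 was the brightest over the 6 arrays. When the experiment entered as a block, 2 were called higher and 1 lower.

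Fcer1g encodes the gamma chain shared by several Fc receptors, which carries their activating motif. Its probe (chr1:173159794-173159853 of mm9, minus strand) read 210, 176 and 156 against 187, 138 and 95.3. It was higher under the GapmeR Ntep label in each experiment, but the groups overlapped, and the log2 difference was 0.41 (SE 0.29). Its signal was 9.20, 5.55 and 6.49 times the local background on the arrays labelled GapmeR Ntep and 8.33, 7.75 and 6.30 times on the control arrays. By this ratio it was lower under the GapmeR Ntep label in experiment 2, and the means were 7.08 against 7.46. Of 12 other genes of Fc receptors and their signalling, 5 were tested, 7 were well above background on no array, and 1 had a probe well above background on all 6. By limma 0 were called (0 higher and 2 lower at an unadjusted p under 0.05), with a median log2 difference of -1.01 among those tested. That median is the value of Lyn, which was well above background on 1 array and whose groups overlapped. The block for the experiment gave 1 called higher and 2 called lower.

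C1qb encodes a chain of C1q, the complement component that is made largely by macrophages. It read 79.6, 79.7 and 61.9 against 92.6, 70.3 and 62.6 and was well above background on 3 of 6 arrays. The log2 difference was -0.02 (SE 0.22), and neither group stood apart. The genes of the other C1q chains, C1qa and C1qc, stayed at or near the floor of 20 on all 6 arrays, with 25.4 as their highest reading.

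Lyz2, the lysozyme gene typical of macrophages and neutrophils, was also close to background. It read 83.3, 47.7 and 37.8 against 67, 54.6 and 60.2, was well above background on 3 of 6 arrays and differed by -0.18 (SE 0.32) on the log2 scale. The highest and the lowest reading both came from arrays labelled GapmeR Ntep.

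**Figure D3:**
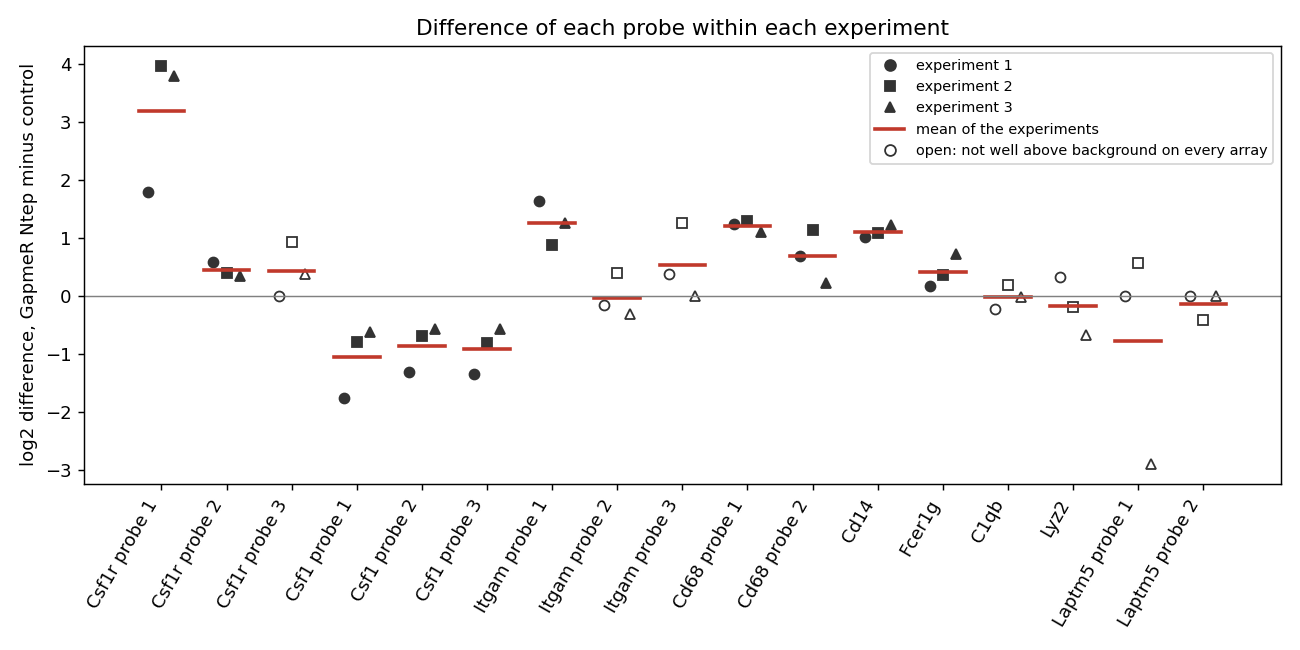
Log2 difference (GapmeR Ntep minus GapmeR control) of each member probe within experiments 1, 2 and 3, shown by symbol shape, with the mean as a red line. Open symbols mark probes not well above background on every array. The 3 Csf1 probes lie below 0 in every experiment, and Csf1r probe 1, Itgam probe 1, Cd68 and Cd14 lie above it.

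Over all 17 member probes, 7 were higher and 3 lower under the GapmeR Ntep label in all 3 experiments, and 7 were mixed. Counting tested probes alone, 10 of 14 member probes had one direction in all 3 experiments, beside 59.0% of all tested probes. The 3 lower ones were the Csf1 probes. The sign of 12 probes was reversed under none of the 14 alternatives of normalization, floor, outlier spots, weights and left-out arrays. The 5 probes whose sign changed were the second Itgam probe, C1qb, Lyz2 and both Laptm5 probes, and none of these was well above background on all 6 arrays.

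Other genes of blood cells were taken as a union of lists of CSF ligands and receptors, macrophage surface, secreted and lysosomal markers, beta2 integrins, Fc receptors, myeloid transcription factors and pan-leukocyte markers, with the members left out. Of these 74 genes, 31 were tested, 40 had a probe well above background on no array, 0 were called higher and 2 were called lower by limma. At an unadjusted p under 0.05 these numbers were 3 and 8. The median log2 difference of the tested genes was 0.02, beside 0.06 for all tested probes, and among all tested probes 647 were called higher and 995 lower. Summed over the list, the signal came to 189606, 168693 and 160667 under the GapmeR Ntep label and to 189826, 182246 and 171567 on the control arrays, with the probe of the transcription factor gene Cebpb the brightest over the 6 arrays. With the experiment as a block, 11 of the 74 were called, 4 higher (Csf3, Lat2, Runx1 and Lcp1, named after their values had been seen) and 7 lower, of which 1 (Ctss) had been called without it. Without the control array of experiment 2, without that of experiment 3 or without the experiment 3 array labelled GapmeR Ntep, limma called 0, 5 and 0 of all tested probes and 0 of the 74, so that these fits say nothing of these genes in particular.

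Ctss encodes cathepsin S, a lysosomal protease of antigen-presenting cells. It read 20, 25.9 and 23.4 on the arrays labelled GapmeR Ntep, none of them well above background, and 217, 350 and 350 on the control arrays. Under the main normalization the fitted log2 difference was -3.70 (SE 0.25, limma adjusted p = 0.0157). The fall was 6.02-fold when each low array was set to the lowest signal of a probe well above background, if that was higher. This is not a strict lower bound, since probes brighter than that signal can also lack the flag. The size depended on how low values were treated, with -2.58 under a floor of 50 and -1.44 under normexp with an offset of 50, where Ctss was called as well. Ctss was lower in all 3 experiments, and the call was lost in 3 of 6 fits that left out 1 array, with an adjusted p of up to 0.109. These 3 are the fits with 0, 5 and 0 calls over all tested probes.

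Nos2 encodes the inducible nitric oxide synthase of activated macrophages. It read 86.8, 236 and 214 against 2654, 1120 and 748, and the groups did not overlap. It fell 7.97-fold (log2 difference -2.99, SE 0.59, limma adjusted p = 0.0467), with -2.33 under normexp and -2.25 with array weights. The adjusted p was 0.0638 with the experiment as a block and between 0.0641 and 0.16 without 1 array, so that each of these fits lost the call.

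The largest differences among the remaining blood cell genes did not pass the test. Mpeg1, which encodes the pore-forming protein perforin-2 of macrophages, read 1114, 6199 and 6148 against 20114, 43879 and 37718 (log2 difference -3.21, SE 0.74, limma adjusted p = 0.063). Lcp1, which encodes the actin-bundling protein L-plastin of leukocytes, read 3979, 1088 and 1922 against 503, 133 and 215 (3.06, SE 0.65, adjusted p = 0.0531), with 2.46 under normexp, where it was called (adjusted p = 0.0456). Their groups did not overlap, and they differed in opposite directions. A dimmer Mpeg1 probe, well above background on the control arrays alone, was 2.78-fold lower, with low arrays set as for Ctss, and was called (adjusted p = 0.0353). The brighter Mpeg1 probe gave -2.38 without the experiment 1 array labelled GapmeR Ntep. Mpeg1 and Lcp1 were both called with the experiment as a block, where the adjusted p was 0.0316 for the brighter probe of Mpeg1 and 0.031 for that of Lcp1.

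The myeloid transcription factor genes showed both signs as well. The brighter Runx1 probe had a log2 difference of 1.61 (SE 0.43, limma adjusted p = 0.0848), whereas the dimmer one, also well above background on all 6 arrays and without overlap of the groups, had -0.91 (SE 0.32, adjusted p = 0.155). The Runx1 probes thus disagreed in sign. Nr1h3, which encodes the oxysterol receptor LXR alpha, had -1.32 (SE 0.35, adjusted p = 0.0814). None of these passed the test, but with the experiment as a block the brighter Runx1 probe and Nr1h3 were called (adjusted p = 0.031 and 0.0356), and the dimmer Runx1 probe was not (adjusted p = 0.0514). Of 11 genes of this list 4 were tested and 7 were well above background on no array, among them Spi1, the gene of PU.1. Of 18 macrophage surface markers 4 were tested, 14 were well above background on no array, and 0 were called by limma (1 higher and 1 lower at an unadjusted p under 0.05). The 1 higher was Clec4f, which was well above background on no array and thus is also among the 14. It reached the limit for testing through the GapmeR Ntep group alone, with a mean of 52.5. Of 13 secreted and lysosomal markers 5 were tested, and Ctss and Nos2 were the 2 called, both lower; the block gave 3 called lower, without Nos2. Of 10 pan-leukocyte markers 6 were tested and 0 called (1 higher and 1 lower at an unadjusted p under 0.05), and of 4 beta2 integrin genes 3 were tested and 0 called (0 at an unadjusted p under 0.05).

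Of 12 genes that act downstream of CSF1R or shed it from the surface, 10 were tested, 0 were called higher and 1 was called lower by limma (0 and 2 at an unadjusted p under 0.05). The one called was Socs1, which encodes an inhibitor of cytokine signalling. It read 10591, 9695 and 8867 against 20141, 17959 and 15763 and fell 1.84-fold (log2 difference -0.88, SE 0.18, limma adjusted p = 0.0481) in all 3 experiments. Each of the 6 fits that left out 1 array lost the call, with an adjusted p of 0.0776 to 0.188. These 6 include the fits with 0, 5 and 0 calls over all tested probes. The median of the tested genes was -0.23, and the block called 0 higher and 2 lower.

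The remaining CSF ligands and receptors were mostly dim. Of 6 genes, 4 were tested, 2 were well above background on all 6 arrays (Il34 and Csf3r) and 2 on none, and 0 were called by limma or had an unadjusted p under 0.05, while the block called 1 (Csf3). Csf3r, the receptor gene of granulocytes, gave 0.16 (SE 0.19, limma adjusted p = 0.625). Its probe shares a run of up to 30 bases with probes of 3 other names. In the class of receptor kinases that CSF1R belongs to, Pdgfra and Pdgfrb were well above background and both lower, with log2 differences of -0.95 (SE 0.76, limma adjusted p = 0.48) and -0.76, and neither passed the test. Without the control array of experiment 1 the value of Pdgfra was -1.61. Of the 4 genes of this class 2 were tested and 0 were called or had an unadjusted p under 0.05.

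Markers of other cell types were read as a further description of the cultures, and 0 genes of these lists outside the fibroblast markers were called by limma in either direction without the block. With the experiment as a block, 1 neutrophil marker (Elane, log2 difference 0.73, adjusted p = 0.0446) and 2 mast cell markers were called. One of these was Tpsb2 (1.24, adjusted p = 0.047), which gave 0.53 without the experiment 1 array labelled GapmeR Ntep. The other, Mcpt4, named after its values had been seen, was lower in each experiment (adjusted p = 0.0327, and 0.0509 without the block). It was well above background on the control arrays alone and 2.02-fold lower, with low arrays set as for Ctss. Of the T cell markers 6 of 8 were tested, of the neutrophil markers 2 of 9, of the mast cell markers 3 of 6, of the dendritic cell markers 2 of 5, of the endothelial markers 3 of 6 and of the epithelial markers 5 of 5, while no B cell marker reached the limit for testing. Of these, 1 neutrophil, 1 mast cell, 1 endothelial and 1 epithelial marker had an unadjusted p under 0.05. Medians of the tested genes were 0.09, 0.71, 0.32, 0.06, 0.38 and 0.20 in the same order. Among the 15 fibroblast markers, all of them tested, 1 was called lower and 0 higher by limma (5 and 0 at an unadjusted p under 0.05), with a median log2 difference of -0.47. The one called was Fbn1, the fibrillin-1 gene, at 2290, 2380 and 2702 against 4990, 4329 and 4209 (log2 difference -0.88, SE 0.17, limma adjusted p = 0.0439). Each of the 6 fits without 1 array lost the call, with an adjusted p of 0.0736 to 0.171. These 6 include the fits with 0, 5 and 0 calls over all tested probes. The block called 2 fibroblast markers lower. The summed signal of the fibroblast markers was 695243, 865972 and 673319 against 1020940, 1047601 and 962423, lower on each array labelled GapmeR Ntep than on every control, and the probe of the collagen gene Col1a2 was the brightest of the list over the 6 arrays. Its part in the differences of the members was not tested.

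Promoter sequences, 250 bases before to 50 after the start of each gene, were taken from RefSeq (GRCm38.p6). In the set used here 7 of the 9 members were matched, and Csf1r and Cd14 were not. The motif GAGGAAGT, a form bound by PU.1, occurs on neither strand in any of these 7, and on either strand in 3.2% of 32851 promoters. The AP-1 motif TGACTCA occurs in 5.2% of these promoters and, among the 7, in that of Cd68 alone. The 250 bases before the start of Cd68 (chr11:69666171-69666420 of GRCm38.p6, minus strand) are shown because the Cd68 probes were both higher under the GapmeR Ntep label. Capitals mark the reverse complement of the AP-1 motif, which starts at bases 102 and 227. A match is a description of the letters and not of binding.
Cd68 promoter: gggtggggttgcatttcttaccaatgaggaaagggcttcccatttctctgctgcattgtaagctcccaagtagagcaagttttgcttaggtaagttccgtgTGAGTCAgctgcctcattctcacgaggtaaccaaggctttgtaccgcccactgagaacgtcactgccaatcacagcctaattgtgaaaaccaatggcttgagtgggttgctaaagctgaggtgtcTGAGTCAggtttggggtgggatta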

How the data were processed

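RNA of 6 cultures of 3T3 cells was measured on Agilent arrays in 1 colour. The authors extracted intensities with Feature Extraction 10.7.3.1 and deposited background-subtracted intensities per array, with mm9 coordinates, and a quantile-normalized table. Here, spots of a probe were averaged, and a probe counted as well above background where at least 50% of its spots were flagged so. Quantile normalization, a floor of 20 and the log2 scale preceded an unpaired limma fit (limma 3.58.1, R 4.3.3). Tested were probes whose brighter group averaged 50 or more. P-values are two-sided and were adjusted by Benjamini and Hochberg's method across the tested probes, and a call is an adjusted p under 0.05. The brightest probe stood for a gene in lists. The steps were tested on simulated data.

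Experiments are paired by culture day in the supplementary documentation. Residuals correlated at 0.466, 0.300 and 0.254 within experiments and at -0.327 to 0.126 otherwise.

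Named were all member probes, Ntep, 9 preset defining genes, of each list at most 4 called genes or, where none was called, at most 2 with the greatest difference among those well above background on all arrays, and the 5 genes most like Csf1r. Not every gene so covered is printed, and genes named outside this rule are said to be chosen after their values were seen or describe a list. The members and lists were chosen with earlier results of these data known.

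Alternatives were 75th percentile scaling, no normalization, normexp with an offset of 50, the authors' table, floors of 50 and 5, other filters, removal of outlier spots, a block for the experiment, a trend, array weights, the methods' t-test and limits, any probe of a gene, and the omission of each array. The floor of 50 and normexp on the probes of the main filter were added after seeing the data. The number of arrays limits the precision.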

Additional observations from a re-analysis of the deposited data

How the results depend on the processing

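Of all tested probes 1642 were called, with 2 of the 74 other blood cell genes among them. These counts were 962 and 2 without normalization, 564 and 1 without the filter, 435 and 1 with a floor of 50, which also let all 55681 probes pass the filter, 2884 and 4 with the filter on background flags, 2707 and 4 with a trend, 10260 and 15 with array weights, 285 and 1 with the methods' t-test, and 2520 and 6 at the methods' limits. With the experiment as a block they were 4292 and 11. In 2 alternatives chosen after seeing the data, which kept the 30990 probes of the main filter, they were 2062 and 3 with a floor of 50 and 2557 and 4 with normexp. Of the 6 genes beside the members whose brightest probe is named as called, the block ended the call of Nos2 alone. The 75th percentile scaling, no normalization and the methods' limits each ended the calls of Socs1 and Fbn1. Testing every probe ended those of Socs1, Nos2, Scarb2 and Fbn1, and the floor of 50 with every probe tested and the methods' t-test each ended these and that of Tirap. On the probes of the main filter the floor of 50 ended none. Leaving out 1 array at a time gave 0 to 1403 and 0 to 1. The lower counts come with fewer arrays; otherwise the cause was not tested. The 75th percentile scaling moved the median log2 difference of all tested probes from 0.06 to 0.20.

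Cd68 was not called by the methods' t-test after adjustment, which called 0 members and 285 of the 30990 tested probes, where 7017 of these had an unadjusted p under 0.05.

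The Ntep probe (-0.48) ranged from -1.06 to 0.13 over the left-out arrays. Differences that had not passed the test changed sign for 4 named genes. Over the left-out arrays Zbtb46 (-0.15) ranged from -0.55 to 0.26, Itgb2 (0.10) from -0.25 to 0.29, Krt8 (0.20) from -0.23 to 0.41 and Itgal (0.26) from -0.20 to 0.95. Zbtb46 was 0.04 with 75th percentile scaling, and with array weights Itgb2 was -0.21 and Krt8 -0.42. The cause was not tested.

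C1qb, Lyz2, Laptm5, the dimmest Csf1r probe and the dimmer Itgam probes lie near background, so that a difference in them was not measurable beyond the values given.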
